A study of Mus musculus with 16 samples.

Results

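The 10 genes described here are S100a8, S100a9, Ly6g, Cxcr2, Csf3r, Retnlg, Mmp9, Lcn2, Trem1 and Clec4d, out of 18929 genes measured by RNA-seq in B16F10 tumors. They were chosen by name from these same tumors, for a strong rise under α-KG alone that is absent when anti-PD1 is added. That choice drew on the vehicle, α-KG and combination values, and each comparison between groups uses at least 1 of these. Group comparisons of the 10 genes are therefore given as descriptions, with no test, anti-PD1 against vehicle included. The variation among tumors of 1 group was not named in the choice and was tested, but in these same tumors.

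B16F10 is a mouse melanoma cell line, grown here in female C57BL/6 mice 7 to 8 weeks old. Every group carried the same tumor line and held 4 tumors. The vehicle group received corn oil and an IgG isotype control, the anti-PD1 group an antibody that blocks the T-cell receptor PD1, the α-KG group α-ketoglutarate at 100 mg/kg, and the α-KG + anti-PD1 group both agents. Treatment ran for 9 to 11 days. Each value is an FPKM, a number of sequenced fragments scaled to the length of the gene and to the size of the library. Read totals are not given, so depth is unknown and single values near or below 1 FPKM carry the most counting error. FPKM summed to between 514180 and 654772 per tumor, and the 4 combination tumors had the lowest sums, from 514180 to 527812.

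Neutrophils are short-lived phagocytes made in the bone marrow under the growth factor G-CSF, leave it by a balance of chemokine receptors, and enter tissue along chemokines bound by CXCR2. Their granules are filled in order, primary granules in progenitors and secondary and tertiary granules in later precursors, so mature cells hold granule proteins whose mRNA they no longer make. In tumors these cells are known both for killing and for suppressing T cells, and the genes described here belong to the program of mature or activated cells. In whole tumors, fewer cells of a type and less RNA per cell cannot be told apart.

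The 10 genes lie on 8 chromosomes in GRCm38, the assembly that the label mm10 names. S100a8 (Gene ID 20201; chr3:90669071-90670034) and S100a9 (20202; chr3:90692630-90695721) are neighbors on opposite strands with 22595 bases between them. Lcn2 (16819; chr2:32384637-32387739) and Mmp9 (17395; chr2:164940326-164955850) share a chromosome but lie far apart. The others are Ly6g (546644; chr15:75155261-75159128), Cxcr2 (12765; chr1:74153994-74161246), Csf3r (12986; chr4:126023441-126044975), Retnlg (245195; chr16:48872608-48874498), Trem1 (58217; chr17:48232713-48246927) and Clec4d (17474; chr6:123262107-123275268). These are whole-gene spans from RefSeq.

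The 250 bases before the RefSeq start of 4 of these genes are printed to show what lies upstream of genes that moved together: the 2 calprotectin genes, the gene with the largest rise, and the gene that names the cell type in flow cytometry. Capitals mark matches, on either strand, to 3 motifs of factors known from granulocyte and cytokine biology, TTNNGCAA for C/EBP half-sites, GAGGAAG for the PU.1 core and TTCNNNGAA for the STAT palindrome. Sequences run 5′ to 3′ on the strand of the gene, from RefSeq on GRCm38.p6.
S100a8, plus strand, chr3:90668821-90669070: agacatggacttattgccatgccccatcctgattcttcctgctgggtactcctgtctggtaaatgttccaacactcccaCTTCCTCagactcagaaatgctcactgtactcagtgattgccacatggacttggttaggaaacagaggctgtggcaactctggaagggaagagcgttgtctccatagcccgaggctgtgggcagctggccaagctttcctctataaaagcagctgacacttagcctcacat
S100a9, minus strand, chr3:90695722-90695971: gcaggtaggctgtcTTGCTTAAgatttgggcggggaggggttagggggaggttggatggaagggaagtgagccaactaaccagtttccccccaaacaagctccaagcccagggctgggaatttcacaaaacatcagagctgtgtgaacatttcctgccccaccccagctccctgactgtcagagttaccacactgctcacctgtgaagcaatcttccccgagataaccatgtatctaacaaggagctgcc
Lcn2, minus strand, chr2:32387740-32387989: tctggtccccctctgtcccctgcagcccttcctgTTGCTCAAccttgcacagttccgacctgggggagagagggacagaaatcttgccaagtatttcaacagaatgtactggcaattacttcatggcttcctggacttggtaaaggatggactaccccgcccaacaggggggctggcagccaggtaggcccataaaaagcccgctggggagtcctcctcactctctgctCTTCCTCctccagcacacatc
Ly6g, plus strand, chr15:75155011-75155260: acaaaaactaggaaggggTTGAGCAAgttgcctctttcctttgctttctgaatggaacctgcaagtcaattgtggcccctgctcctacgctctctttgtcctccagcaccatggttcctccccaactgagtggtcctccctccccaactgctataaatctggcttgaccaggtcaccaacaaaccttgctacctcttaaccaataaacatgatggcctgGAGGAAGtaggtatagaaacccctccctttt

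Windows of this kind, from 250 bases before to 50 after the start, were at hand for 9 of the 10 genes, all but Mmp9. The C/EBP letters were in 4 of the 9 windows (S100a9, Ly6g, Retnlg and Lcn2) and in 10.8% of 26742 promoter windows. The PU.1 letters were in 5 (S100a8, Ly6g, Csf3r, Lcn2 and Clec4d), against 13.3% of all windows. The STAT letters were in 1, that of Trem1, against 8.50%. Lcn2 and Ly6g held both of the first motifs, and Cxcr2 held none of the 3. No match overlapped another in these windows. A match says only that the letters are present, and the motifs and the genes were picked with the results known.

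S100a8 and S100a9 encode the subunits of calprotectin, an alarmin that makes up much of the neutrophil cytosol. In the α-KG tumors S100a8 read 607, 416, 785 and 1044 FPKM (713 ± 267, SD, n = 4). The 4 vehicle tumors read 5.6, 7.69, 11.8 and 14.1 FPKM (9.80 ± 3.86), the anti-PD1 tumors 9.65, 36.4, 3.79 and 17.2 FPKM (16.8 ± 14.2) and the combination tumors 16.9, 5.69, 5.35 and 39.2 FPKM (16.8 ± 15.9). The lowest α-KG tumor lay far above the other 12 tumors, and these 12 overlapped from group to group. The mean under α-KG was 72.7 times that of vehicle and 42.5 times that of the combination.

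For S100a9 the α-KG tumors ranged from 529 to 1473 FPKM (944 ± 406), while no other tumor passed 47.4 FPKM. The ratio of means to vehicle was 90.0. The ratio of S100a8 to S100a9 stayed between 0.691 and 1.15 over the 16 tumors, so the 2 subunits kept near-equal levels per length whether they were low or high. The α-KG tumors spanned 0.709 to 0.808.

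**Figure D1:**
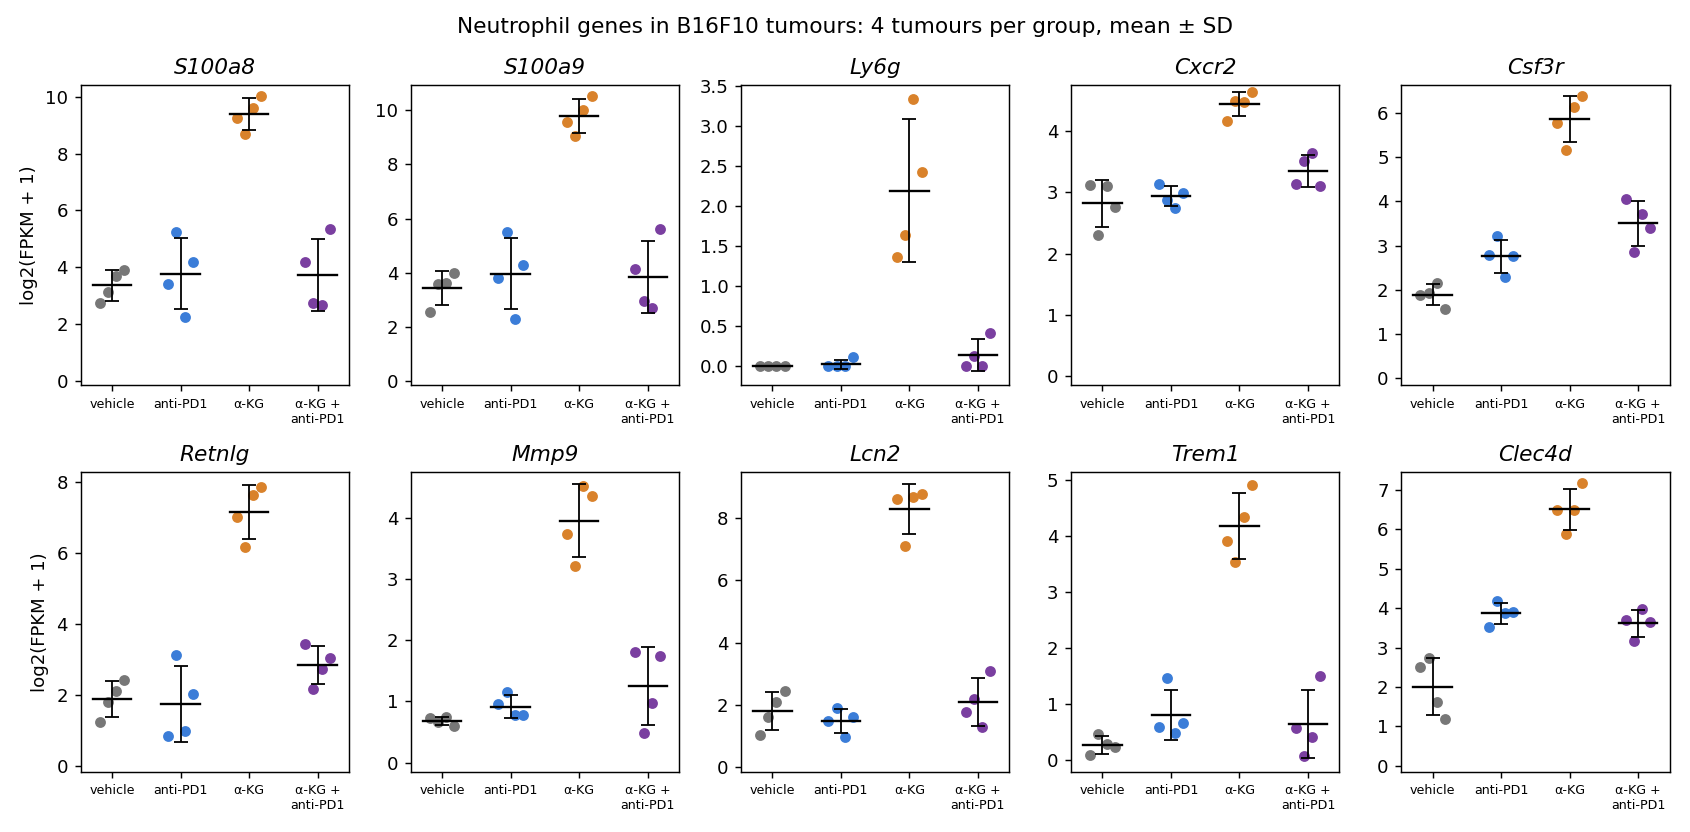
Each panel plots 1 gene: log2(FPKM + 1) on the vertical axis for the 4 groups on the horizontal axis, with a dot per tumor and the mean ± SD in black, 4 tumors per group. In all 10 panels the 4 α-KG tumors lie above the other 12, by the narrowest margin for Cxcr2, and the remaining groups overlap in most. The genes were chosen for a rise under α-KG that the combination lacks, so nothing is read from that count. The share of all genes that separate so was not computed.

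Among the genes of granule and secreted proteins, Lcn2 showed the largest difference of the 10. It encodes lipocalin 2, which starves bacteria of iron by binding siderophores. Its α-KG tumors read 390.2, 136, 406 and 438 FPKM (343 ± 139). Vehicle tumors read 1.05, 2.06, 3.31 and 4.39 FPKM (2.70 ± 1.46), anti-PD1 tumors 1.78, 2.69, 0.94 and 2.07 FPKM (1.87 ± 0.73) and combination tumors 2.44, 3.59, 1.44 and 7.55 FPKM (3.75 ± 2.68). The mean was 127 times that of vehicle and 91.2 times that of the combination, and tumor 2 of the α-KG group stood well below the other 3.

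Retnlg encodes resistin-like gamma, a secreted protein abundant in mouse granulocytes. It ranged from 71.1 to 234 FPKM under α-KG (158 ± 72.6), from 1.37 to 4.44 in vehicle (2.92 ± 1.3), from 0.81 to 7.84 under anti-PD1 (3.18 ± 3.28) and from 3.49 to 9.96 in the combination (6.60 ± 2.72). Mmp9, the gelatinase of tertiary granules, ranged from 8.28 to 21.9 FPKM under α-KG (15.5 ± 6.30) and from 0.52 to 0.68 in vehicle (0.61 ± 0.07). Its combination tumors spread from 0.40 to 2.51 FPKM (1.55 ± 1.03) and its anti-PD1 tumors from 0.71 to 1.23 (0.90 ± 0.24). Both genes were thus low in the same 12 tumors, with Retnlg at 54.2 and Mmp9 at 25.3 times the vehicle mean under α-KG.

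The receptors differed more among themselves. Csf3r encodes the receptor for G-CSF, and its α-KG tumors read 53.8, 35.0, 69.1 and 82.8 FPKM (60.2 ± 20.6). Its vehicle tumors read 2.69, 2.83, 3.46 and 1.99 FPKM (2.74 ± 0.60), its anti-PD1 tumors 5.90, 8.25, 3.88 and 5.82 FPKM (5.96 ± 1.79) and its combination tumors 15.7, 6.24, 12.2 and 9.48 FPKM (10.9 ± 4.00). Here the combination tumors all lay above vehicle, at 3.97 times its mean, and all below α-KG, whose mean was 5.53 times theirs.

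Clec4d encodes a C-type lectin of myeloid cells that binds mycobacterial glycolipid. Its 4 α-KG tumors read 89.3, 58.4, 89.1 and 143 FPKM (94.9 ± 35.0), against 4.72, 5.62, 2.07 and 1.27 FPKM in vehicle (3.42 ± 2.08). The anti-PD1 tumors read 10.6, 17.1, 13.6 and 14.1 FPKM (13.9 ± 2.68) and the combination tumors 12.02, 7.94, 14.7 and 11.5 FPKM (11.5 ± 2.79). Each treated group lay wholly above vehicle for this gene, and the anti-PD1 and combination tumors overlapped.

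Cxcr2, the receptor that draws neutrophils along CXC chemokines, moved least. Its α-KG tumors read 17.0, 21.6, 21.2 and 23.9 FPKM (20.9 ± 2.87), its vehicle tumors 7.68, 3.92, 7.61 and 5.78 FPKM (6.25 ± 1.78), its anti-PD1 tumors 7.83, 6.34, 5.71 and 6.98 FPKM (6.72 ± 0.91) and its combination tumors 7.85, 10.5, 11.5 and 7.60 FPKM (9.34 ± 1.92). The mean under α-KG was 3.35 times that of vehicle and 2.24 times that of the combination. Per length, the vehicle means of Cxcr2 (6.25 FPKM) and S100a8 (9.80 FPKM) were of the same order, and those under α-KG (20.9 and 713 FPKM) were not.

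Trem1, an activating receptor that amplifies inflammation in neutrophils and monocytes, ranged from 10.6 to 28.9 FPKM under α-KG (18.2 ± 7.96). Outside that group no tumor passed 1.85 FPKM, and the vehicle tumors lay between 0.07 and 0.39 FPKM. Ly6g, the surface protein by which mouse neutrophils are usually gated, read 1.57, 2.11, 9.16 and 4.38 FPKM under α-KG. It was listed at 0 in all 4 vehicle tumors, in 3 of the anti-PD1 tumors (0.08 FPKM in the fourth) and in 2 of the combination tumors (0.09 and 0.34 FPKM in the others), so no fold is given. Ly6g belongs to a cluster of related genes on chromosome 15, and how the counting treated reads that fit more than 1 of them is not known.

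As log2(FPKM + 1), a scale that shrinks changes of low genes, the differences between α-KG and vehicle ran from 1.62 (Cxcr2) to 6.49 (Lcn2), with a median of 4.24. All 10 passed the threshold used for the whole table, an adjusted p under 0.05 from limma with Benjamini-Hochberg adjustment over 12850 genes, where 8.4% of genes passed as higher and 7.53% as lower. Nothing is read from that count, since the choice of genes fixed it. The median over all genes tested was -0.04. Ly6g passed the filter on low values (0.5 FPKM in at least 4 tumors) only through the α-KG group, and the other 9 passed without it.

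Between the combination and α-KG, the same scale gave differences from -6.20 (Lcn2) to -1.09 (Cxcr2), with a median of -3.21. All 10 passed as lower, where 6.47% of all genes passed as lower and 31.8% as higher, again as the choice fixed. Against vehicle, the combination had a median difference of 0.47 for the 10 genes beside 0.15 for all genes tested. Csf3r (1.62), Clec4d (1.61) and Cxcr2 (0.53) passed as higher, and 34.9% of all genes did so with 10.5% lower. After quantile normalization the difference of Cxcr2 was 0.17.

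The difference that anti-PD1 made beside α-KG, less the difference it made alone, is the interaction, and it was negative for all 10 genes, from -6.47 (S100a9) to -1.21 (Cxcr2). The choice of a rise under α-KG that the combination lacks builds in that sign, so nothing is read from it. Of all genes, 3.13% had a negative and 7.99% a positive interaction past the threshold. Between the combination and anti-PD1, the differences of the 10 genes ran from -0.26 (Clec4d) to 1.10 (Retnlg), with a median of 0.22, and these 2 groups overlapped for each of the 10. Of all genes, 14.2% were called higher and 1.31% lower in that comparison. For S100a8 the difference was -0.05.

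The balance of calls over all genes depended on how tumors were scaled, mostly where the combination entered. Of the genes called between the combination and vehicle, 76.9% were higher with the values as given, 35.9% under quantile normalization, 31.4% with tumor medians aligned and 96.2% with tumor sums made equal. The same 4 shares were 83.1%, 50.0%, 36.0% and 94.9% for the combination against α-KG, 91.5%, 40.0%, 29.0% and 99.1% for the combination against anti-PD1, and 71.9%, 50.4%, 38.1% and 88.1% for the interaction. For α-KG against vehicle they were 52.7%, 38.7%, 43.3% and 67.7%, and for anti-PD1 against vehicle 62.5%, 59.2%, 66.7% and 51.7%. The median over all genes for the combination against vehicle was -0.11, -0.16 and 0.34 under the 3 scalings.

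**Figure D2:**
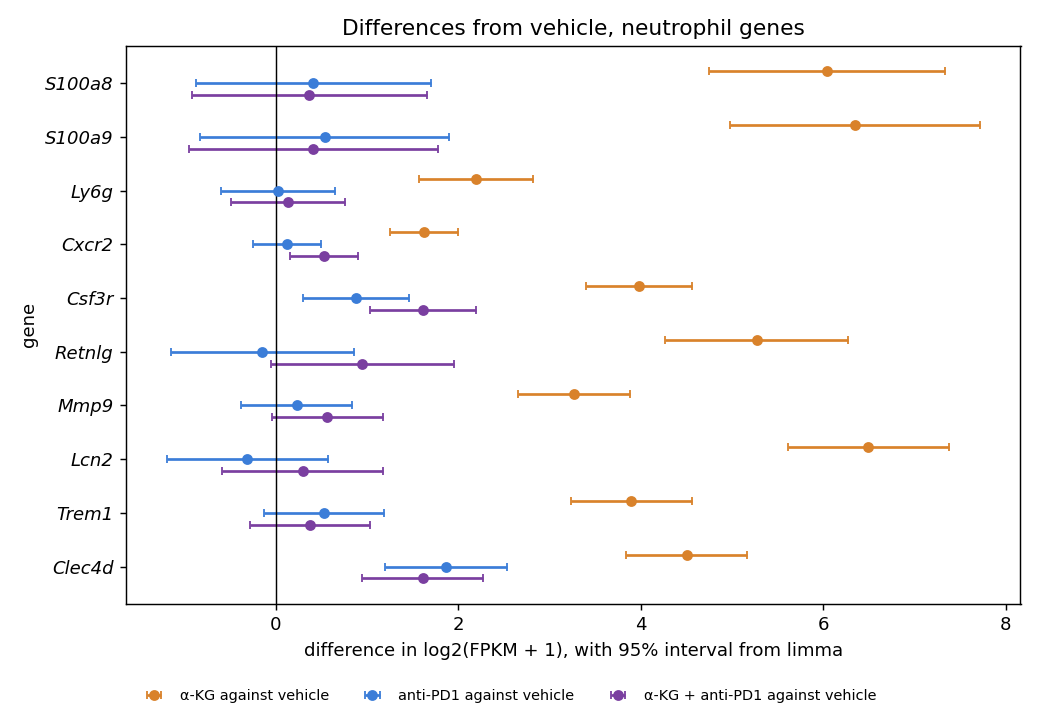
The horizontal axis gives the difference from vehicle in log2(FPKM + 1) and the vertical axis the 10 genes. Dots are limma estimates from 16 tumors and bars their 95% intervals, for α-KG, anti-PD1 and the combination. The α-KG estimates run from 1.62 to 6.49, and the anti-PD1 estimates from -0.31 to 1.86, with Clec4d and Csf3r the highest.

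Anti-PD1 alone was set beside vehicle to ask whether the antibody moves these genes by itself. The vehicle tumors are also the baseline of the rise for which the genes were chosen, so genes picked for low vehicle values lean toward a higher reading in any other group, and nothing is read from the count that passed the threshold. The differences ran from -0.31 (Lcn2) to 1.86 (Clec4d), with a median of 0.32. For Clec4d the standard error was 0.31, and the 4 anti-PD1 tumors lay above all vehicle tumors. It was the 1 gene of the 10 past the threshold, where 0.467% of all genes were called higher and 0.28% lower. Without 1 tumor its difference ran from 1.59 to 2.10, and it no longer passed in 7 of 16 such fits, those without vehicle tumor 3 or 4, anti-PD1 tumor 2, 3 or 4, or α-KG tumor 1 or 3, which enter the shared estimate of the spread. Nor did it pass with no filter on low values or with the compared groups alone. Calls fell over the whole table in these fits. None of all genes passed without vehicle tumor 3 or 4 or anti-PD1 tumor 2, 3 or 4, or with the compared groups alone. Without α-KG tumor 1 or 3, 5 genes were called higher, and 3 with no filter.

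Csf3r had a difference of 0.87 (standard error 0.27), Trem1 one of 0.53 (0.31) and Mmp9 one of 0.23 (0.29). For each of these genes too, the 4 anti-PD1 tumors lay above all vehicle tumors. Trem1 and Mmp9 were low in both groups, at most 1.77 and 1.23 FPKM. The share of all genes that separate so was not computed. The standard errors were larger where tumors scattered, 0.61 for S100a8 (difference 0.41), 0.64 for S100a9 (0.53), 0.47 for Retnlg (-0.15) and 0.41 for Lcn2. For Cxcr2 the difference was 0.12 with a standard error of 0.18. In 8 of the 10 genes anti-PD1 tumor 2 had the highest value of its group.

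The deviation of each tumor from its group mean on the log2 scale was correlated between genes. The choice of genes named differences between groups, not variation inside them. But the genes come from these same tumors and were named for 1 cell type, so independence from the choice is not shown. Over 16 tumors and 45 pairs of genes, the median Pearson r was 0.49, from -0.27 to 0.98, and 37 pairs were positive. The median Spearman rho was 0.46. By permuting tumors within groups 100000 times and adjusting over the 45 pairs, 17 pairs passed by r and 12 by rho. The same counts over pairs of other genes were not computed, so how unusual they are in these tumors is not known. Ly6g enters 9 of the pairs, all positive, and is near or at 0 outside α-KG. Among the 36 pairs of the other 9 genes the median r was 0.55 and the median rho 0.51, 28 pairs were positive, and 17 passed by r and 12 by rho when adjusted over the 36. The pattern rests in part on α-KG tumors 4 and 2, the tumors farthest from the median: without them the median r was 0.27 over 45 pairs, with 33 positive, and 0.43 over 36 pairs, with 25 positive.

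The closest pair was S100a8 with S100a9 (r = 0.98, rho = 0.98, each permutation p = 1e-05, the smallest these permutations can give, adjusted p = 0.00045; r = 0.98 without the 2 tumors). Trem1 followed S100a9 at r = 0.84 (rho = 0.84, permutation p = 5e-05 and 0.00015, adjusted p = 0.00112 and 0.00285) and kept r = 0.86 without them. Lcn2 followed S100a9 at r = 0.77 (rho = 0.80, permutation p = 0.00047 and 0.00038, adjusted p = 0.00529 and 0.00342), with 0.79 without them. Cxcr2 stood apart, with a median r of -0.19 to the other 9 genes, and Clec4d came next at 0.16. In the α-KG group, tumor 4 was the highest of its group in 8 of the 10 genes and tumor 2 the lowest in 8.

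**Figure D3:**
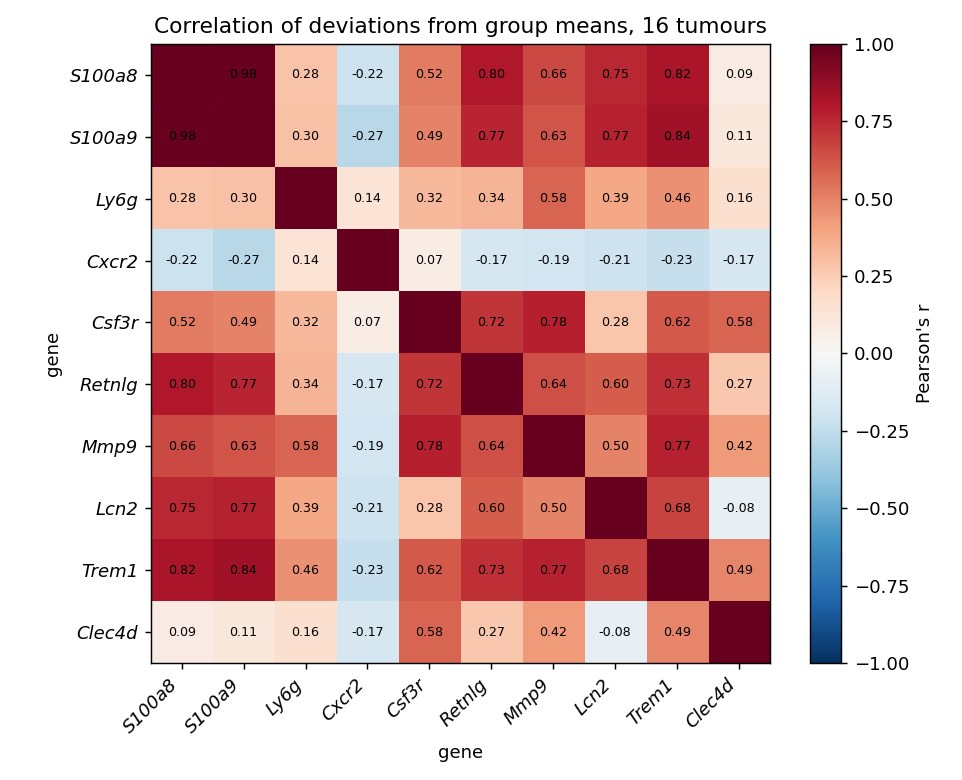
Rows and columns are the 10 genes, and each cell gives Pearson's r between their deviations from the group means of log2(FPKM + 1) over 16 tumors, red for positive and blue for negative. S100a8, S100a9, Retnlg, Lcn2 and Trem1 form the reddest block, with r from 0.60 to 0.98, and the row of Cxcr2 is the palest.

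The ligands and partners of these proteins were read from a list of 12 genes, of which 11 were tested, Csf3 only because its α-KG tumors passed the filter. Of the other 10, 8 were called higher under α-KG than in vehicle, as were 8.4% of all genes, with a median difference of 1.77. The 5 with the largest differences were Cxcl2, Cxcl3, Csf3, Tyrobp and Fcer1g. Cxcl2 and Cxcl3 encode chemokines bound by CXCR2, Csf3 encodes G-CSF itself, and Tyrobp and Fcer1g encode adaptors through which TREM1 and C-type lectins signal.

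Cxcl2 read 566, 414, 607 and 1232 FPKM in the α-KG tumors, against 1.45 to 7.70 in vehicle, 7.25 to 14.3 under anti-PD1 and 3.25 to 49.1 in the combination. Its difference from vehicle under α-KG was 6.96 (standard error 0.64, limma adjusted p = 1.87e-06), and the combination lay lower than α-KG by a difference of -6.30 (adjusted p = 1.90e-05). The highest combination tumor, number 4, was also the highest of its group for S100a8, S100a9, Ly6g, Lcn2 and Trem1. For the other genes described here it was not. Tumor 1 was the highest for Csf3r, Retnlg and Mmp9, and tumor 3 for Cxcr2 and Clec4d. For Cxcr2, tumor 4 was the lowest of its group, at 7.60 FPKM.

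For Cxcl3 the α-KG tumors read 158, 138, 127 and 377 FPKM, and the combination tumors 0.89, 1.02, 2.32 and 5.22. The difference was 5.33 from vehicle under α-KG and -5.92 between the combination and α-KG (limma adjusted p = 1.91e-07 and 3.46e-07). Csf3 read 9.90, 3.77, 8.66 and 15.2 FPKM under α-KG and at most 0.25 in vehicle and anti-PD1 tumors. In the combination it read 0.04, 0.12, 0 and 1.27. Cxcl2 and Cxcl3 thus fell between α-KG and the combination, and the 4 α-KG tumors lay above the other 12 for Csf3.

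The adaptors did not follow the same course. Tyrobp was higher than in vehicle by 2.98 under α-KG and by 2.59 in the combination (limma adjusted p = 5.31e-05 and 0.000417), and Fcer1g by 2.75 and 2.51 (adjusted p = 0.000209 and 0.000476). Between the combination and α-KG, Tyrobp differed by -0.39 and Fcer1g by -0.24, with adjusted p of 0.438 and 0.658. Calprotectin receptors were read as well: Tlr4 differed by 0.49 under α-KG (limma adjusted p = 0.0335), and Ager by 0.10 (adjusted p = 0.913). Ager was higher in the combination than in vehicle by 2.10 (adjusted p = 0.00217).

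Other genes of neutrophils were read from 4 lists with 40 genes in all, of which 38 were in the table. Of these, 26 passed the filter, 8 of them only through the α-KG group, which left 18 that did not need that group to pass. All 18 were higher under α-KG than in vehicle, with a median difference of 3.63 beside -0.04 for all genes, of which 8.4% were called higher. In the combination 16 of the 18 were lower than under α-KG (median -1.87), and 13 of the 18 were higher than in vehicle (median 1.22). Over all genes, 6.47% and 34.9% were called so. Over all 26, the count higher in the combination than in vehicle was 14, and 9 under quantile normalization. A negative interaction was called for 16 of the 18, beside 3.13% of all genes. Of the 18, Cd177, Fpr1, Clec5a and Asprv1 needed the α-KG and combination tumors together to pass the filter, and of the 14 that did not, all were higher under α-KG and 10 in the combination than in vehicle. Under anti-PD1 alone 2 were higher than in vehicle, Ptafr and C5ar1, receptors of platelet-activating factor and of complement C5a. Of all genes, 0.467% were called higher in that comparison. The calls of Ptafr and C5ar1 were lost in the same 7 fits without 1 tumor in which Clec4d no longer passed. Those fits called from 0 to 5 of all genes higher.

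Surface receptors were the fullest list, with 13 of 14 genes tested, 3 of them passing the filter only through α-KG. The 10 that passed without it were all higher under α-KG and all lower in the combination than under α-KG. All 10 were also higher in the combination than in vehicle. Over all genes, 8.4%, 6.47% and 34.9% were called so. Counting the 3 as well, 13 were higher under α-KG, 13 lower in the combination and 10 above vehicle in the combination. Clec4e, which encodes the lectin Mincle, read 67.4, 33.6, 65.4 and 98.5 FPKM under α-KG, 0.48 to 1.67 in vehicle and 2.82 to 10.5 in the combination. The next largest differences from vehicle under α-KG were those of Mrgpra2b (4.64), Il1r2 (4.19), Fpr1 (4.12) and Fpr2 (3.66). Il1r2 encodes a decoy receptor for interleukin 1, and the Fpr genes encode receptors for formylated bacterial peptides. Mrgpra2b is 1 of the 3.

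Of the other genes marking mature cells, 6 of 10 were tested, 1 of them (Stfa2) only through α-KG. The other 5 were all higher under α-KG and lower in the combination than under α-KG. In the combination, 1 of the 5 (Slfn4) was above vehicle. The shares of all genes called so were 8.4%, 6.47% and 34.9%. Hdc, the enzyme that makes histamine, and G0s2, an inhibitor of fat breakdown, differed from vehicle by 5.39 and 5.23. Stfa2l1 (4.83), Asprv1 (3.98) and Slfn4 (3.35) followed. G0s2 read 95.7, 83.5, 146 and 222 FPKM under α-KG and 0.49 to 7.19 in the combination, against 1.16 to 4.40 in vehicle. Stfa2l1 is 1 of several near-identical stefin genes, so its level is uncertain.

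Granule genes were read by stage. The 7 genes of progenitors and primary granules were near 0 in every tumor, with Mpo at most 0.04, Elane at most 0.24 and Ctsg at most 0.08 FPKM, and none passed the filter. Among secondary and tertiary granule genes 7 of 9 passed, 4 of them only through α-KG, and Camp and Ltf, which encode cathelicidin and lactoferrin, stayed at or below 0.53 and 1.26 FPKM. The 3 that passed without α-KG were all higher under α-KG, and 1 of them was lower in the combination than under α-KG. Over all 7, the counts were 7 and 4, beside 8.4% and 6.47% of all genes. The differences from vehicle under α-KG were led by Pglyrp1 (3.86), Wfdc21 (3.54), Mmp8 (2.36), Cd177 (1.34) and Olfm4 (1.15). Wfdc21 and Olfm4 are among the 4 that passed only through α-KG.

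Pglyrp1, a peptidoglycan-binding protein, departed from the 10 genes: it read 25.0, 16.8, 49.8 and 41.6 FPKM under α-KG and 29.3, 10.5, 24.3 and 5.6 in the combination. The 2 groups overlapped, with a difference of -1.03 (limma adjusted p = 0.0976). Cd177 and Mmp25, the others not called lower, differed by -0.55 and -0.35.

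**Figure D4:**
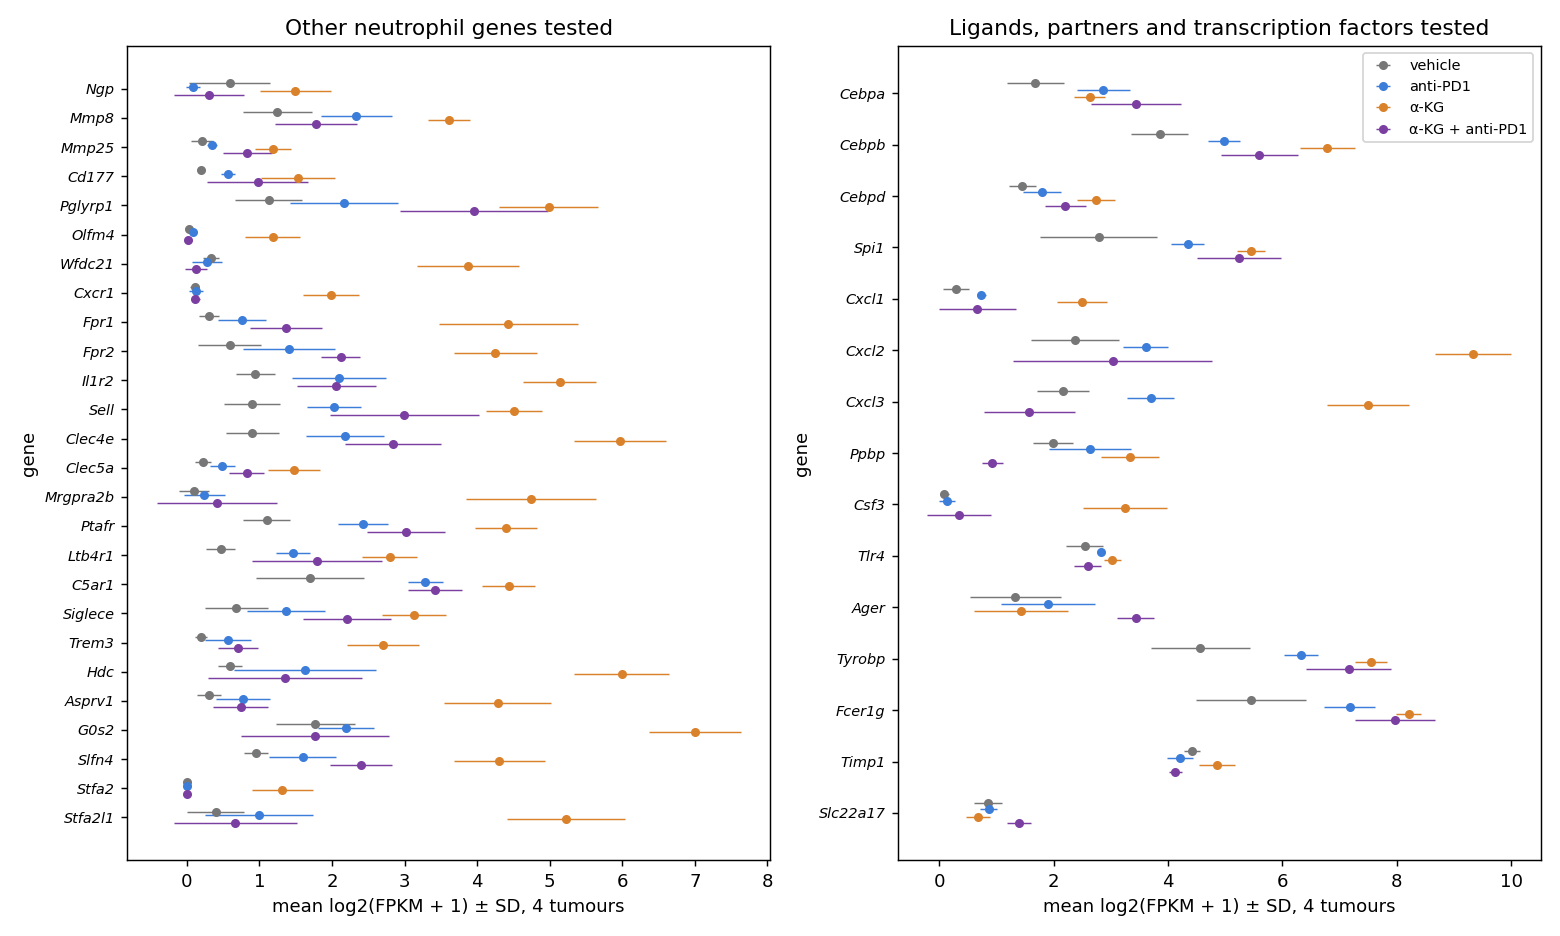
Dots are means of log2(FPKM + 1) over 4 tumors and bars ± SD, on the horizontal axis, with 1 gene per line and 1 color per group. On the left are the 26 other neutrophil genes tested, 8 of which passed the filter only through α-KG. On the right, Cxcl2, Cxcl3 and Csf3 separate under α-KG, while Tyrobp, Fcer1g and Spi1 are high under α-KG and in the combination alike.

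Among transcription factors of granulocyte development, 4 of 6 were tested, and 3 were higher under α-KG, beside 8.4% of all genes. Cebpb, which drives granulocyte output in emergencies, was higher than in vehicle by 2.93 under α-KG and by 1.74 in the combination, and the combination was lower than α-KG by a difference of -1.19 (limma adjusted p = 0.00926). Spi1, which encodes PU.1, differed from vehicle by 2.67 under α-KG and 2.45 in the combination. Cebpd (1.28) passed under α-KG, and Cebpa (0.95) did not. Gfi1 and Cebpe did not pass the filter. Gfi1 read 1.57, 0.48, 1.37 and 0.28 FPKM in the combination tumors and at most 0.38 under α-KG, and Cebpe at most 0.49 in any tumor.

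The oxidase list, the enzyme that makes superoxide in all phagocytes together with the histone-modifying Padi4, was also shared between groups. Under α-KG 6 of 7 were higher than in vehicle and in the combination all 7 were. In the combination 1 of the 7, Padi4, was lower than under α-KG. The shares of all genes called so were 8.4%, 34.9% and 6.47%. Padi4 passed the filter only through those 2 groups, and of the other 6, 5 were higher under α-KG and 6 in the combination. The differences from vehicle under α-KG were largest for Rac2 (2.98), Ncf1 (2.72), Ncf4 (2.62) and Cybb (2.01).

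Relatives of the 10 genes by sequence family gave a mixed picture. Of 23 genes in the S100, resistin, Ly6, metalloproteinase, Trem, Clec4 and Cxcr families, 20 were tested, with a median difference of 0.85 under α-KG. From vehicle, 9 were higher under α-KG and 14 in the combination, and 4 were lower in the combination than under α-KG. Among all genes tested, 8.4%, 34.9% and 6.47% were called so. The 5 largest differences under α-KG were those of Clec4n (3.16), Ly6c2 (2.92), Cxcr4 (2.74), S100a6 (2.61) and Ly6e (2.46). Clec4n, which encodes the lectin dectin-2, fell between α-KG and the combination by 1.42 on the log2 scale. Ly6c2, a marker of inflammatory monocytes, was at 22.1 and 56.6 FPKM on average in those groups. For Ly6c2 the groups overlapped, at 16.8 to 26.7 FPKM under α-KG and 91.1, 29.3, 92.4 and 13.4 in the combination.

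Markers of other cells moved with these groups too, and their part in the results was not tested. The 6 monocyte markers summed to 92.5 to 108 FPKM in the α-KG tumors, 47.6 to 262 in the combination, 31.1 to 64.0 under anti-PD1 and 6.4 to 20.5 in vehicle. All 6 were higher than in vehicle under α-KG and in the combination, and 2 (Chil3 and Vcan) were lower in the combination than under α-KG. Of 8 macrophage markers, 4 were higher under α-KG and 8 in the combination, with sums of 430.2 to 698 and 675 to 1621 FPKM beside 98.2 to 488 in vehicle and 427 to 803 under anti-PD1. Of 7 pan-leukocyte markers, 6 were higher under α-KG, 6 in the combination, and limma called 0 between these groups (1 at an unadjusted p under 0.05), with a median difference of 0.00. The 10 genes described here summed to 1288 to 3491 FPKM under α-KG, 44.7 to 134 in the combination, 34.0 to 126 under anti-PD1 and 28.7 to 47.4 in vehicle.

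T-cell markers went the other way: 5 of 5 tested were higher in the combination than in vehicle, than under anti-PD1 and than under α-KG, and limma called 0 of 5 between α-KG and vehicle, with 0 at an unadjusted p under 0.05. Of all genes, 34.9% were called higher in the combination than in vehicle, 14.2% than under anti-PD1 and 31.8% than under α-KG. The T-cell markers had sums of 3.44 to 23.4 FPKM under α-KG and 16.1 to 148 in the combination. The 6 red cell genes summed to 10891 to 11752 FPKM in the combination and to 23318 or more in each other tumor. Skeletal muscle genes summed to 49.7 to 644 FPKM in vehicle, 2.49 to 3.97 under anti-PD1, 3.30 to 4.13 under α-KG and 4.11 to 62.3 in the combination. Melanocyte genes, the check of the labelled tumor, summed to 7657 to 10336 FPKM in all 16 tumors. Keratinocyte genes, which can also express S100a8 and S100a9, were at or below 0.46 FPKM in every tumor.

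The genes most like the 10 were found by correlating each of 12840 other tested genes with their mean z-score over 16 tumors. This is a description in which group differences dominate, and the points share 4 groups. The 15 closest had r from 0.98 to 0.99, and 3 of them (Asprv1, Mrgpra2b and Hdc) were already in the neutrophil lists. The closest was Lrg1 (r = 0.99), a secreted glycoprotein, at 0.69 FPKM in vehicle, 0.69 under anti-PD1, 28.4 under α-KG and 1.09 in the combination. Chil1, Arg2, Sgms2, Mcemp1, Slpi, Gm38525, Ankrd33b, Spatc1, Osm, Serpinb2 and Nlrp12 made up the rest. Slpi, an inhibitor of serine proteases, was the most abundant of the 15 under α-KG at 112 FPKM, beside 3.72 in the combination. Osm, a cytokine of the interleukin 6 family, was at 37.3 and 2.81 FPKM in those groups, and Arg2, a mitochondrial arginase, at 15.8 and 0.82. Within groups the 15 genes correlated with the deviations of the 10 at r from 0.63 to 0.91. Those deviations are part of the values by which the 15 were picked, so this is no separate check. The range over other genes was not computed. Several of the 15 were near 0 outside α-KG, such as Nlrp12, at 0.10 FPKM in vehicle, 0.06 under anti-PD1 and 0.16 in the combination on average.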

How the data were processed

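Messenger RNA of 16 B16F10 tumors, 4 per group by their labels, was selected with oligo-dT, and libraries with dUTP in the second strand were read by a DNBSEQ platform. The authors deposited 1 FPKM per gene and tumor, to 2 decimals, for 18929 genes, and all value columns were used. The submitters' processing notes name HISAT, Bowtie2 and mm10, with no role or version. The counting program and annotation are not given in the sources used here. No depth can be given, and p-values measure only the spread between these tumors.

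FPKM was changed to log2(FPKM + 1), and the 12850 genes for which 4 or more tumors reached 0.5 FPKM were fitted with limma 3.58.1 in R 4.3.3, with 1 mean per group over 16 tumors and a trended eBayes. Benjamini-Hochberg adjustment covered all fitted genes, and 0.05 was the threshold. The fit was tested on simulated data. Within-group correlations used 100000 permutations of tumors within groups, in Python 3.11.15 with numpy 2.4.6. Promoter sequences and gene places came from RefSeq tables for GRCm38.p6, in which all 10 genes were matched.

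The 10 genes, the gene lists and the motifs were chosen with earlier results of these data known. Named genes are the 10, up to 5 per list with the largest absolute difference between α-KG and vehicle, and the 15 most like the 10. Genes that spell out a count of 5 or fewer, Tlr4, Ager, Camp, Ltf, Mpo, Elane, Ctsg, Gfi1 and Cebpe were added after their values were seen. One gene that the rule names is not reported here. Alternatives were another pseudocount (0.1), other filters, 3 scalings, no trend, the compared groups alone, a replicate block and fits without each tumor. The comparison of anti-PD1 with vehicle, planned as a test for the 10 genes, is given as a description because its vehicle tumors were used in the choice. No tumor was left out of the fits reported, and no value was imputed.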

Additional observations from a re-analysis of the deposited data

Results flagged for a closer look

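Of 39 gene and group combinations with any spread, 3 had a highest or lowest tumor whose gap to the next tumor was above Dixon's critical share of the range of its 4 tumors. Chance flags about 1 in 20 such groups. In 1 of the 39, Ly6g under anti-PD1, the other 3 tumors were all listed at 0, so that any value above 0 would have met the rule, which leaves 2 of 38. Lcn2 read 136.34 FPKM in α-KG tumor 2, below 390.18 to 437.51 in the other 3. Trem1 read 1.77 FPKM in anti-PD1 tumor 2, above 0.41 to 0.58 in the other 3. Ly6g read 0.08 FPKM in anti-PD1 tumor 4 and was listed at 0 in the other 3.

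The effect of anti-PD1 differed with and without α-KG, by the interaction term in limma, for 22 of the 26 other neutrophil genes tested, all in the negative direction. Of the 26, 8 had passed the filter on low values only through the α-KG group, and of the remaining 18 the interaction was negative for 16. Over all genes tested, 3.13% had a negative interaction past the threshold.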

How the results depend on the processing

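The α-KG rise of other neutrophil genes and their negative interaction kept counts within 1.5 times in each alternative run, as did their fall in the combination: without 1 tumor they were 25 to 26, 20 to 23 and 21 to 25. Those ranges cover all 26 genes tested, 8 of which passed the filter only through α-KG. The count higher in the combination than in vehicle went from 14 to 9 under quantile normalization. The counts for anti-PD1 against vehicle moved most. With limma, the members past the threshold, a description, went from 1 to 0 with no filter, with only the compared groups and with the replicate block (2, 3 and 2 at an unadjusted p under 0.05), and were 0 to 1 without 1 tumor. Other neutrophil genes called higher went from 2 to 5 with a pseudocount of 0.1, 1 with equal sums, and 0 with no filter, with only the compared groups and with the replicate block (9, 17 and 9 at an unadjusted p under 0.05), and were 0 to 3 without 1 tumor. Calls over all genes moved too. Genes called higher went from 60 to 232 with a pseudocount of 0.1, 15 with equal sums and 3 with no filter. With only the compared groups and with the replicate block they were 0.

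Same-numbered tumors did not deviate together (r from -0.64 to 0.41 over 24 pairs of tumors, median 0.01), so the numbers pair nothing. The paired fit moved no other count by over 1.5 times. Differences near 0 between anti-PD1 and vehicle changed sign: Ly6g was -0.0503 with tumor medians aligned, and without 1 tumor the differences ran from 0 to 0.037 for Ly6g, from -0.0548 to 0.22 for Cxcr2, from -0.61 to 0.15 for Retnlg and from -0.0738 to 0.92 for S100a8. The median within-group r was 0.27 without the 2 tumors farthest from the median and 0.55 without Ly6g, both choices made after seeing the data. The causes were not tested. Unknown depth limits values near 1 FPKM, and Ly6g, Mmp9 and Trem1 had larger differences with the smaller pseudocount, 5.14, 4.36 and 5.85 between α-KG and vehicle.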

Other observations

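Granulocytes other than neutrophils left few marks. Of 6 eosinophil markers 2 were tested, and 1 of them, Siglecf, passed the filter only through α-KG and combination tumors. The other was higher than in vehicle under α-KG and in the combination, as were 8.4% and 34.9% of all genes. The 6 markers had sums of 4.73 to 7.07 and 3.89 to 9.92 FPKM beside 0.29 to 1.33 in vehicle and 1.18 to 3.22 under anti-PD1. Epx, which encodes the peroxidase of eosinophil granules, was listed at 0 in 14 of 16 tumors. Mast cell and basophil markers summed to at most 2.36 FPKM in any tumor, and limma called 0 of the 1 tested in the comparison of α-KG with vehicle, with 0 at an unadjusted p under 0.05.

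Platelet and megakaryocyte markers summed to 36.1 to 67.5 FPKM under α-KG, 26.9 to 56.6 under anti-PD1, 17.6 to 31.4 in the combination and 12.96 to 23.0 in vehicle. Most of that sum was Pf4, a chemokine that macrophages also express, and 3 of the 4 genes tested were lower in the combination than under α-KG, or 2 of 3 without Gp1bb, which passed the filter only through α-KG. Of all genes, 6.47% were called lower in that comparison.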
